A study of Mus musculus with 24 samples.

Results

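The genes described here are the interferon response and MHC class I genes *B2m*, *H2-K1*, *H2-D1*, *Tap1*, *Psmb8*, *Irf7*, *Irf9*, *Ifit1* and *Ifit3*, taken by symbol and Ensembl identifier from the mRNA count table. They are 9 of 38293 genes counted and 9 of 18593 genes tested, and all 9 passed the filter on low counts. The study asked how subchronic variable stress (SCVS, alternating foot shock, tail suspension and restraint) regulates RNA in the nucleus accumbens (NAc), a ventral striatal reward region, of male and female mice. All groups were C57BL/6J mice labelled as 9 weeks old: unstressed control males (NSM), stressed males (SM), unstressed control females (NSF) and stressed females (SF). Females were in estrus or proestrus. Each group had 3 libraries, and each library pooled NAc punches from 5 mice, so that p-values measure the spread between pools and not between animals.

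MHC class I molecules display peptides from the inside of a cell on its surface, where CD8 T cells read them. Proteins are cut by the proteasome, the peptides are pumped into the endoplasmic reticulum by the TAP transporter, and there they are loaded on a heavy chain paired with beta-2-microglobulin. Interferons raise this whole route: type I interferon acts through IRF9 and its partners at interferon-stimulated response elements (ISREs), while interferon gamma acts at GAS elements. In healthy brain, class I genes are transcribed in microglia, endothelial cells and some neurons, and class I molecules are known for roles at synapses as well as in immunity. In bulk tissue, fewer cells of a type and less RNA per cell cannot be told apart.

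Of these genes, 1 was called for a stress difference, at an unadjusted p under 0.05 by limma and a fold of at least 1.3. This rule called 6.44% of all genes tested for stress in males, 1.73% in females and 5.31% between unstressed females and males. *Tap1* was 1.40-fold lower in stressed than in unstressed males, with no such difference called in females. *Irf7* was 1.50-fold higher in unstressed females than in unstressed males. The remaining genes differed by less than 1.3-fold in each comparison below, and no gene of the 9 reached an adjusted p under 0.05 by limma in any of the 6 comparisons. Of all genes tested, 3.32% did so for stress in males, 0% for stress in females, 0.0269% for the sex-by-stress interaction, 0.285% between unstressed females and males, 0.145% between stressed females and males and 0.5% for the mean stress difference.

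Library depth was between 41076780 and 60867747 reads assigned to genes. Striatal neuron markers were high in every library (summed level of 3787 to 4767 CPM, read counts scaled to library size by TMM). Markers of cortical glutamatergic neurons (6 genes, *Slc17a7* and *Lamp5* the most abundant) differed between libraries, with a summed level of 99.0 to 122 CPM in NSM, 174 to 294 CPM in SM, 125 to 430 CPM in NSF and 144 to 224 CPM in SF. One NSM library held choroid plexus markers at 109 CPM against 32.2 to 43.9 CPM in the other libraries. Erythroid markers (5 genes measured) were at 21.8 to 27.4 CPM in NSM and 38.5 to 47.2 CPM in SM. Of 12 blood leukocyte markers only *Cd4*, *Cd79a* and *Ccr2* were tested, the T cell gene *Cd3g* had at most 1 read in a library and the neutrophil gene *Ly6g* had 0 reads in all 12 libraries, and *Cd4* carried the summed level.

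The promoters of the 9 genes were read from RefSeq (GRCm38.p6, 250 bases before to 50 bases after each start, 9 of 9 genes matched) to show which hold the letters that interferon signalling is known to use. The ISRE core was searched as GAAA followed, after any 2 bases, by GAAA again, and the GAS core as TTCNNNGAA, each on both strands. The ISRE core was found in 3 of the 9 genes, and in 3.99% of all genes with a window. The GAS core was found in *Psmb8* alone of the 9, and in 9.55% of all genes. The matches read 5′ to 3′ on the strand of the gene, with the matched letters in capitals. In *Ifit1* and *Ifit3* the match reads on the opposite strand. Positions are counted back from the transcript start.
*B2m*, chr2:122147538-122147567, + strand, match at -139 to -130: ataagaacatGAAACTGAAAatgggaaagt
*Ifit1*, chr19:34640775-34640804, + strand, match at -104 to -95: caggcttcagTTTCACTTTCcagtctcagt
*Ifit1*, chr19:34640794-34640823, + strand, match at -85 to -76: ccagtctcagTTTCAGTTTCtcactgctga
*Ifit3*, chr19:34583363-34583392, + strand, match at -156 to -147: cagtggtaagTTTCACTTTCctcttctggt
*Ifit3*, chr19:34583397-34583426, + strand, match at -122 to -113: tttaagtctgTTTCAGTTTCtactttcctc
*Psmb8*, chr17:34198088-34198117, + strand, match at -97 to -89: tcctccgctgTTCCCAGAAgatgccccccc
*Ifit1* and *Ifit3* held 2 matches each, and the matched letters of the upstream match were TTTCACTTTC in both genes, as those of the downstream match were TTTCAGTTTC in both. *Tap1* and *Irf7*, the genes with a difference that passed the test, held neither core in this window, which says only that these letters are not there. The windows come from another build than the counts and only their letters were used.

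Levels can be compared between genes only per length, and were therefore also computed as FPKM (CPM per kilobase of annotated exon). *B2m*, the light chain shared by all classical class I molecules (NCBIM37 chr2:121973422-121978819), was the most abundant, at 47.1 ± 3.28 FPKM (SD, n = 12 libraries), above 94.4% of the 17795 tested genes with an annotated length. The heavy chains followed, with *H2-D1* (chr17:35399675-35404444) at 6.51 ± 0.551 FPKM and *H2-K1* (chr17:34132962-34137278) at 4.42 ± 0.459 FPKM, close to the median of 4.04 FPKM over those genes. *H2-D1* was higher than *H2-K1* in 12 of 12 libraries. Class I heavy chain genes are near-identical copies of each other in places, so reads from shared stretches may not be assigned to the right gene.

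*Ifit3* and *Ifit1* encode interferon-induced antiviral proteins and have close copies in the genome. *Ifit3* (chr19:34658021-34663221) was at 2.14 ± 0.158 FPKM, and *Ifit1* (chr19:34715361-34724499) at 0.498 ± 0.0423 FPKM. *Irf9* (chr14:56222408-56228867), a DNA-binding factor activated by type I interferon, was at 1.91 ± 0.215 FPKM. *Ifit3* was above *Irf9* in 10 of 12 libraries and their ranges overlapped, so the order of this pair is not separated from the spread.

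The 3 least abundant genes were *Irf7* (chr7:148448605-148452380), the interferon-induced amplifier of type I interferon transcription, at 0.343 ± 0.0637 FPKM, *Tap1* (chr17:34324498-34334170), a subunit of the peptide transporter, at 0.323 ± 0.0472 FPKM, and *Psmb8* (chr17:34334666-34338399), a catalytic subunit of the immunoproteasome, at 0.291 ± 0.0579 FPKM. Their ranges overlapped, and each was above the next in 8 of 12 libraries. They lay above only 13.7% to 15.4% of tested genes and rested on few reads, 34 to 75 a library for *Irf7*, 57 to 114 for *Tap1* and 27 to 51 for *Psmb8*. *Psmb8* shares 187 exon bases with *Gm20496* on the opposite strand. The depth therefore limits them. Counting alone would give *Psmb8* a coefficient of variation of 16.1%, against 19.9% measured over the 12 libraries, and *Tap1* 10.7% against 14.6%. For *Ifit1* (8.50% measured, 12.5% from counting) and *Ifit3* (7.42% against 7.43%) the spread over all groups was no larger than counting error, whereas *B2m* (6.96% against 2.25%) and *Irf9* (11.2% against 4.46%) varied beyond it. 

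**Figure D1:**
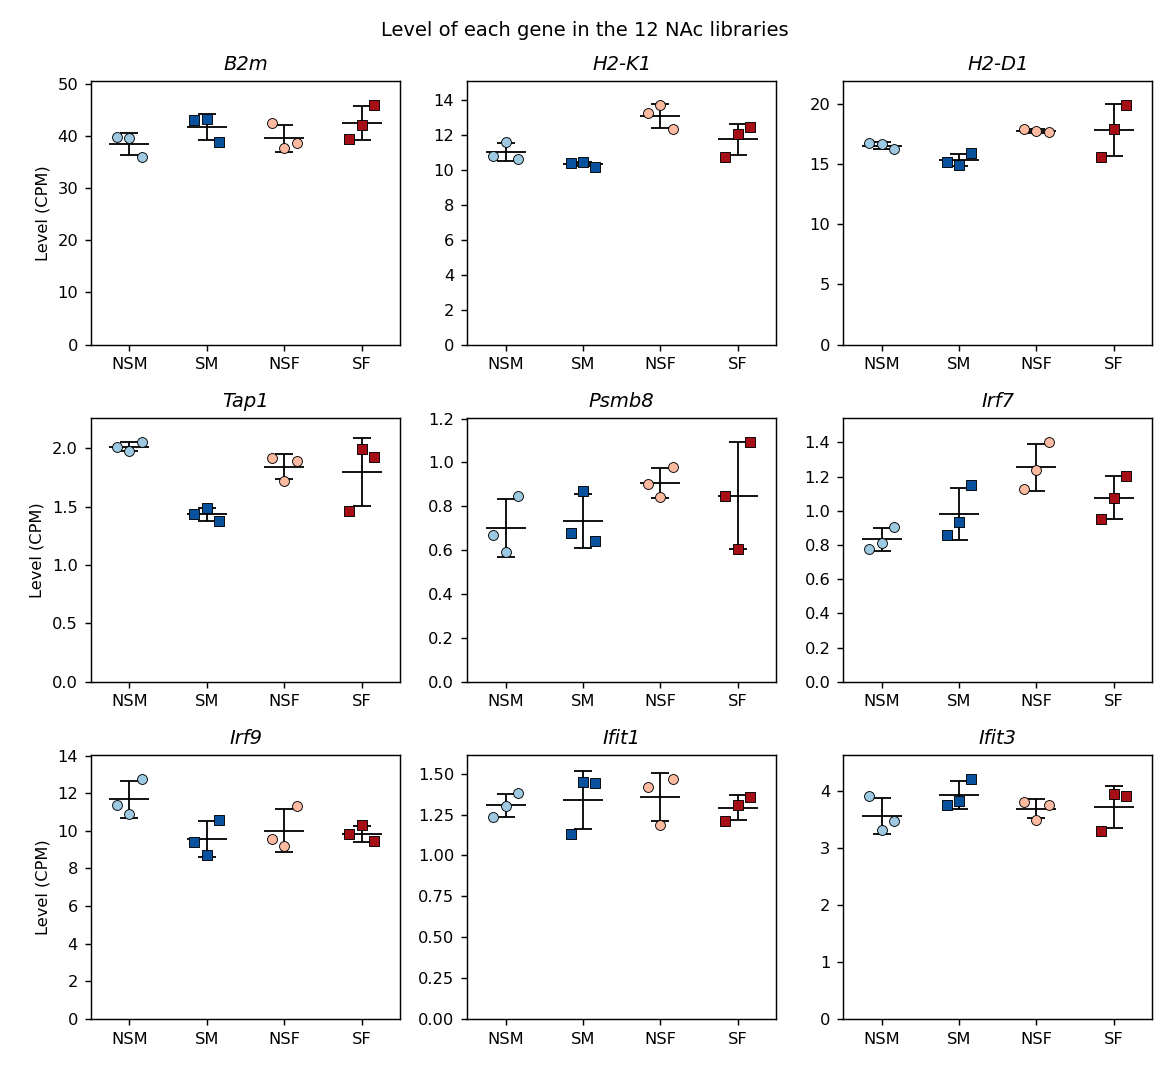
Level of each gene (y axis, CPM, from 0) in the unstressed and stressed male (NSM, SM) and female (NSF, SF) groups. Points are libraries, and bars give the mean and SD of 3 libraries. The 3 SM libraries of *Tap1* sit between 1.37 and 1.49 CPM, below the NSM libraries, and the 3 NSF libraries of *Irf7* sit above the NSM libraries.

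The comparison of stressed with unstressed males asks which genes SCVS regulated in the sex that also shows the larger number of called genes in these libraries. *Tap1* fell in stressed males. It was at 2.01, 1.97 and 2.05 CPM in the NSM libraries and at 1.43, 1.49 and 1.37 CPM in the SM libraries, so the groups did not overlap. The difference was -0.49 on the log2 scale (SE 0.14, 95% interval -0.79 to -0.18), with an adjusted p of 0.0772 by limma. A gene counts as called when its unadjusted p is under 0.05 and its fold is 1.3 or more. By this rule 1 of the 9 was called, beside 6.44% of all genes tested. By unadjusted p alone 2 of the 9 passed, beside 21.5% of all genes. *Tap1* was called in males in all 12 fits that left out 1 library each, at -0.51 to -0.45. Its adjusted p by limma ranged from 0.0476, with scaling by library size only, to 0.209 over the alternatives.

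*Tap1* overlaps *Psmb9*, a further immunoproteasome gene on the opposite strand, over 212 exon bases. *Psmb9* was not analysed here. Reads of the library kit carry no strand, so reads from these bases cannot be told apart. The SM libraries were also the higher ones for cortical neuron markers and erythroid markers (above), and the summed level of 12 microglia markers was 444 to 491 CPM in SM and 397 to 424 CPM in NSM. The summed level of the blood leukocyte markers, carried by *Cd4*, was 59.5 to 69.5 CPM in SM and 39.1 to 46.6 CPM in NSM. With the cortical marker level as a covariate, an alternative chosen after seeing the data, the *Tap1* difference was -0.59 and called. The summed cortical marker levels of NSM and SM did not overlap (above), so in males marker level and stress cannot be told apart. The part of the other marker differences in the result was not tested.

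*Irf9* was next. It was at 11.4, 10.9 and 12.7 CPM in NSM and at 9.41, 8.72 and 10.6 CPM in SM, again without overlap. The difference was -0.29 on the log2 scale (SE 0.10), with an unadjusted p under 0.05 and an adjusted p of 0.116 by limma, and its 1.22-fold size was under the fold threshold. It passed the threshold only with the cortical marker level as a covariate, at -0.42. That fit cannot separate this level from stress in males. The microglia markers, higher in SM than in NSM, ran against *Irf9* across the 12 libraries (r = -0.70), and their part in the difference was not tested. *Irf9* shares 123 exon bases with its neighbour *Rnf31* on the same strand.

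The heavy chains were slightly lower and the light chain slightly higher in stressed males. *H2-K1* was at 10.8, 11.6 and 10.6 CPM in NSM and 10.4, 10.4 and 10.2 CPM in SM. *H2-D1* was at 16.8, 16.6 and 16.2 CPM in NSM and 15.2, 14.9 and 15.9 CPM in SM. Neither pair of groups overlapped, yet the differences of -0.09 for *H2-K1* (SE 0.07) and -0.11 for *H2-D1* (SE 0.08) on the log2 scale had adjusted p of 0.511 and 0.427 by limma, which uses the spread within all 4 groups. Thus 4 of the 9 genes had groups that did not overlap, beside 23% of all genes. *B2m* differed by 0.12 on the log2 scale (SE 0.07), with overlap.

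The remaining genes gave differences of 0.04 for *Ifit1*, 0.07 for *Psmb8*, 0.14 for *Ifit3* and 0.24 for *Irf7* on the log2 scale in males, all with overlapping groups and adjusted p of 0.461 or more by limma. The interval of *Ifit1* reached from -0.28 to 0.37, so a 1.3-fold difference in either direction lies outside it, while that of *Psmb8*, from -0.44 to 0.58, holds such a difference in both directions. In all, 5 of the genes were higher and 4 were lower, with a median of 0.04 against -0.01 over all genes tested.

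In females, 0 of the 9 genes were called, beside 1.73% of all genes tested, and 1 of them had an unadjusted p under 0.05 in limma, beside 4.23% of all genes. That gene was *H2-K1*, at 13.2, 13.7 and 12.3 CPM in NSF and at 10.7, 12.1 and 12.4 CPM in SF. The groups overlapped, and the difference of -0.16 on the log2 scale (SE 0.07) had an adjusted p of 0.948 by limma. *H2-D1*, at 17.9, 17.7 and 17.6 CPM in NSF, was at 15.6, 17.9 and 19.9 CPM in SF, the widest range of any group of this gene.

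*Tap1* in females was at 1.92, 1.72 and 1.89 CPM in NSF and at 1.46, 2.00 and 1.92 CPM in SF. In SF 1 library was as low as the stressed males and the other 2 were near the controls. The difference was -0.04 on the log2 scale (95% interval -0.33 to 0.25), and it was 0.10 without the first SF library. No female group pair among the 9 genes was without overlap, where 11.3% of all genes had such a pair. The other 6 genes differed by -0.22 (*Irf7*) to 0.11 (*B2m*) on the log2 scale, with *Irf9* at -0.01. In all, 2 genes were higher and 7 lower, with a median of -0.04.

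**Figure D2:**
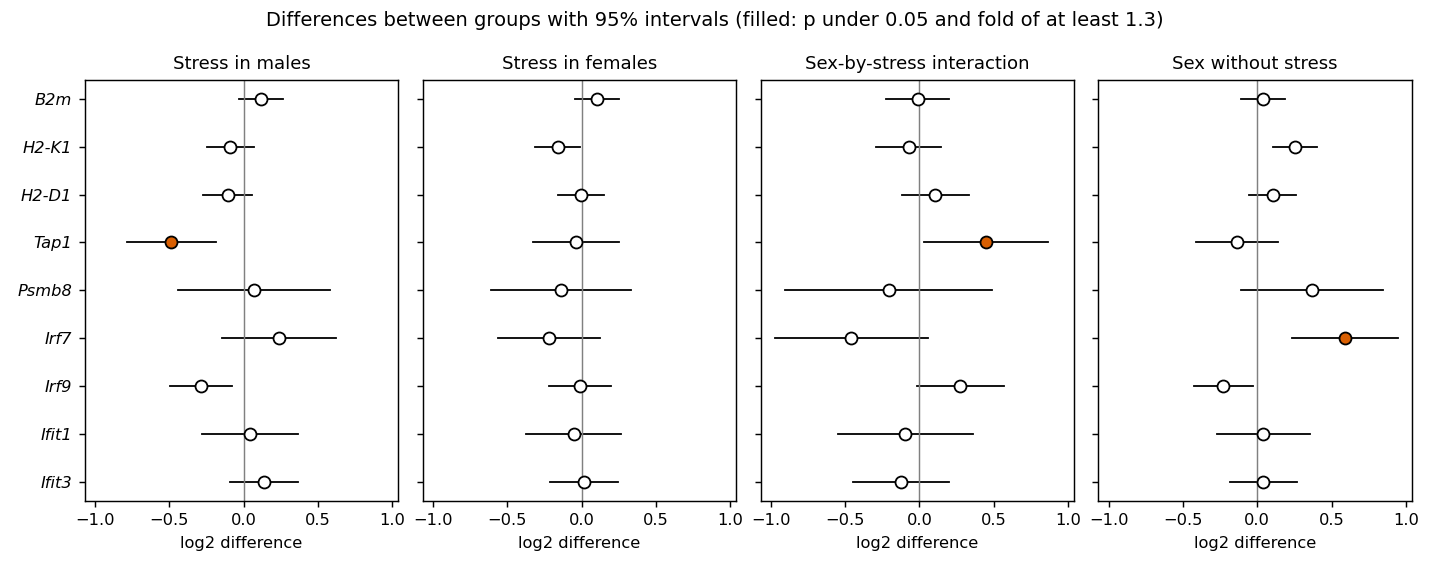
Differences between groups (x axis, log2 scale) for each gene in 4 comparisons, with 95% intervals from limma. Filled points passed p under 0.05 and a fold of at least 1.3. *Tap1* is filled for stress in males (-0.49) and for the interaction (0.45), and *Irf7* for the sex difference without stress (0.59).

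Whether the response to stress differed between the sexes was tested as the sex-by-stress interaction, the female minus the male stress difference. *Tap1* was called at 0.45 on the log2 scale (SE 0.19, 95% interval 0.03 to 0.87), with an adjusted p of 0.493 by limma. It was 1 of 9 genes called, beside 4.42% of all genes tested, and the only one of the 9 with an unadjusted p under 0.05, beside 9.55% of all genes. The call was present in 4 of 12 fits without 1 library, those without SM replicate 2, NSF replicate 1, NSF replicate 3 or SF replicate 1, at values of 0.36 to 0.58 over the 12. It was absent with DESeq2 (0.45, adjusted p = 0.685) and absent with replicate number as a block (0.46, adjusted p = 0.398 by limma). A further fit left out the NSM library with choroid plexus markers and the 2 NSF libraries with the highest cortical neuron markers. There the interaction was 0.54 for *Tap1* and 0.41 for *Irf9*. NSF replicate 2 was the only NSF library left in that fit, so only the sizes are given.

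*Irf7* differed with opposite signs in the 2 sexes, and the interaction did not pass the test. All 3 SM libraries (0.856, 0.936 and 1.15 CPM) lay above the NSM mean of 0.832 CPM, and all 3 SF libraries (0.953, 1.08 and 1.20 CPM) lay below the NSF mean of 1.26 CPM. The interaction was -0.46 on the log2 scale (SE 0.24), with an adjusted p of 0.585 by limma. For *Irf9* it was 0.28 (SE 0.14, adjusted p = 0.555 by limma).

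Between unstressed females and unstressed males, *Irf7* was higher in females. It was at 0.777, 0.813 and 0.907 CPM in NSM and at 1.13, 1.24 and 1.40 CPM in NSF, without overlap. The difference was 0.59 on the log2 scale (SE 0.17, 95% interval 0.23 to 0.95), with an adjusted p of 0.131 by limma. It was 1 of 9 genes called, beside 5.31% of all genes tested, and 1 of 3 with an unadjusted p under 0.05, beside 15.4% of all genes. It was called in all 12 fits without 1 library. *Irf7* shares 45 exon bases with *Phrf1* on the opposite strand.

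The *Irf7* call was lost with the cortical neuron marker level as a covariate, an alternative chosen after seeing the data. The difference was then 0.43 (adjusted p = 0.911 by limma). A further fit, also chosen after seeing the data, left out the NSM library with choroid plexus markers. It also left out the 2 NSF libraries with the highest cortical neuron markers. The difference was 0.51, and NSF replicate 2 was the only NSF library left, so only this size is given. The NSF libraries held cortical neuron markers at 335, 125 and 430 CPM, with *Irf7* at 1.13, 1.24 and 1.40 CPM in the same order. These marker levels all lay above the 99.0 to 122 CPM of NSM, so marker level and sex were not separated. The lowest of them, 125 CPM, lay only narrowly above, and the covariate was the mean log2 CPM of the markers, not this sum. The summed level of 10 endothelial markers was 209 to 219 CPM in NSF and 188 to 199.5 CPM in NSM, the summed level of erythroid markers was 29.8 to 38.9 CPM in NSF and 21.8 to 27.4 CPM in NSM, and that of 6 meningeal fibroblast markers was 22.1 to 25.2 CPM in NSF and 19.5 to 20.9 CPM in NSM. The part of these markers in the result was not tested.

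*H2-K1* was also higher in unstressed females, at 12.3 to 13.7 CPM against 10.6 to 11.6 CPM in unstressed males. The groups did not overlap and the difference of 0.26 on the log2 scale (SE 0.07) had an adjusted p of 0.126 by limma, but at 1.19-fold it stayed under the fold threshold. *Irf9* was at 9.17 to 11.3 CPM in NSF against 10.9 to 12.7 CPM in NSM, a difference of -0.23 (SE 0.09, adjusted p = 0.260 by limma). In 4 of the 9 genes the groups did not overlap, with *H2-D1* higher and *Tap1* lower beside the called gene and *H2-K1*, against 19.5% of all genes. This comparison and the stress comparison in males use the same NSM libraries, so their values are not independent of each other.

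After stress, 0 of 9 genes were called between the sexes, beside 5.55% of all genes tested, and 2 had an unadjusted p under 0.05 in limma, beside 16.4% of all genes. These were the heavy chains, *H2-K1* at 0.18 on the log2 scale (SE 0.07, adjusted p = 0.239 by limma) and *H2-D1* at 0.21 (SE 0.08, adjusted p = 0.192 by limma), both higher in SF than in SM. Without the first SF library *H2-D1* differed by 0.30, with an adjusted p of 0.0368 by limma. The groups did not overlap for *H2-K1* alone, where 20.4% of all genes had no overlap. *Tap1* was at 0.31 (SE 0.15, adjusted p = 0.306 by limma), and without the first SF library it was called at 0.45. Over both sexes together, the mean stress difference was called for 0 of 9 genes, beside 3.38% of all genes. At an unadjusted p under 0.05 by limma (18.7% of all genes) there were 4, namely *B2m* at 0.11, *H2-K1* at -0.13, *Irf9* at -0.15 and *Tap1* at -0.26 on the log2 scale, with adjusted p between 0.186 and 0.260.

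The further genes of the pathway were counted from fixed lists. Of 17 tested genes of class I peptide supply, loading and regulation, 1 rose and 1 fell in stressed males, 0 rose and 1 fell in stressed females and 0 were called for the interaction. Among all genes tested, 6.44%, 1.73% and 4.42% were called in these comparisons, so a list of this size holds too few called genes to be set apart from the background. The one that fell in each sex was *H2-Q7*, a non-classical class I gene with near-identical copies beside it. It was at 0.772 to 0.918 CPM in NSM and 0.478 to 0.638 CPM in SM, a difference of -0.61 on the log2 scale (SE 0.18, adjusted p 0.0868 by limma). In females it went from 0.807 to 0.924 CPM in NSF to 0.590 to 0.699 CPM in SF, a difference of -0.44 (SE 0.18, adjusted p 0.948 by limma). Of the same list, *H2-Q6* differed by -0.13 in males and -0.06 in females, and *H2-Q4* by -0.12 and -0.07. Neither was called, and the part of read assignment between such genes was not tested.

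The gene that rose in stressed males was *Nlrc5*, the activator of class I transcription, at 0.62 on the log2 scale (SE 0.26, adjusted p 0.187 by limma). Its NSM libraries ranged from 0.265 to 0.513 CPM, and its NSF libraries, from 0.564 to 0.680 CPM, were also higher (0.62, SE 0.25, adjusted p 0.258 by limma). *Tap2*, the partner of *Tap1* in the transporter, was at 2.82 ± 0.239 CPM in NSM and 2.23 ± 0.378 CPM in SM. In males *Tap2* differed by -0.35 on the log2 scale (SE 0.15, adjusted p 0.196 by limma). Its unadjusted p was under 0.05, as for 21.5% of all genes, and its fold was under the threshold. It was called only between the sexes after stress, at 0.46 (SE 0.15, adjusted p 0.142 by limma). In males 13 of the 17 genes were lower, with a median of -0.13 against -0.01 over all genes tested, and in females 12 of 17 were lower, with a median of -0.03. The interaction was positive in 15 of the 17, with a median of 0.09 against 0.01 over all genes tested, and 0 of them had an unadjusted p under 0.05 by limma. As the interaction is the female minus the male difference, this count is not independent of the male one.

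Of 7 genes of the class II pathway, which loads peptides in antigen-presenting cells, *Ciita* fell in both sexes. *Ciita* is the master activator of class II transcription. It went from 1.62 ± 0.0497 CPM in NSM to 1.10 ± 0.126 CPM in SM (-0.56 on the log2 scale, SE 0.17, adjusted p 0.0857 by limma) and from 1.70 ± 0.0928 CPM in NSF to 1.31 ± 0.309 CPM in SF (-0.39, SE 0.16, adjusted p 0.948 by limma). It was 1 of 7 called in each sex, beside 6.44% of all genes in males and 1.73% in females. The other class II genes were not called for stress, and 5 of 7 were higher in males and 6 of 7 in females.

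Of 44 tested other interferon-stimulated genes, 0 rose and 2 fell in stressed males, *Ifi35* (-0.40 on the log2 scale, SE 0.16) and the GTPase gene *Ifi47* (-0.61, SE 0.23). In stressed females 0 rose and 2 fell, *Ifi44* (-0.57, SE 0.26) and *Samd9l* (-0.61, SE 0.23), the latter encoding an antiviral restriction factor. The 2 called of 44 stand beside 6.44% of all genes called in males and 1.73% in females, so the counts are no result about the list. The medians of the list were -0.09 in males and -0.02 in females, and 29 of the 44 were lower in males and 24 in females. *Ifi47* was called for the interaction as well (0.72, SE 0.33). *Isg15*, an interferon-induced ubiquitin-like protein, was at 1.93 CPM in NSM, 1.64 CPM in SM, 1.92 CPM in NSF and 1.70 CPM in SF on average, and was not called.

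Between unstressed females and males 5 of the 44 were called, beside 5.31% of all genes. *Samd9l* was higher (0.53, SE 0.22) and *Oas2*, *Zbp1*, *Ifi47* and *Gbp6* were lower in females, at -0.71 to -0.50 on the log2 scale. *Samd9l* ranged from 3.35 to 6.63 CPM within NSF, wider than the 3.11 to 4.08 CPM of NSM. After stress 2 of the 44 were called, beside 5.55% of all genes. The antiviral tether gene *Bst2* (0.71, SE 0.21) and *Rtp4* (0.38, SE 0.16) were higher in females than in males. *Oas3* (-0.45, SE 0.19) and *Ifi44* (-0.39, SE 0.18) were called for the mean stress difference. No gene of these lists reached an adjusted p under 0.05 by limma in any comparison.

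**Figure D3:**
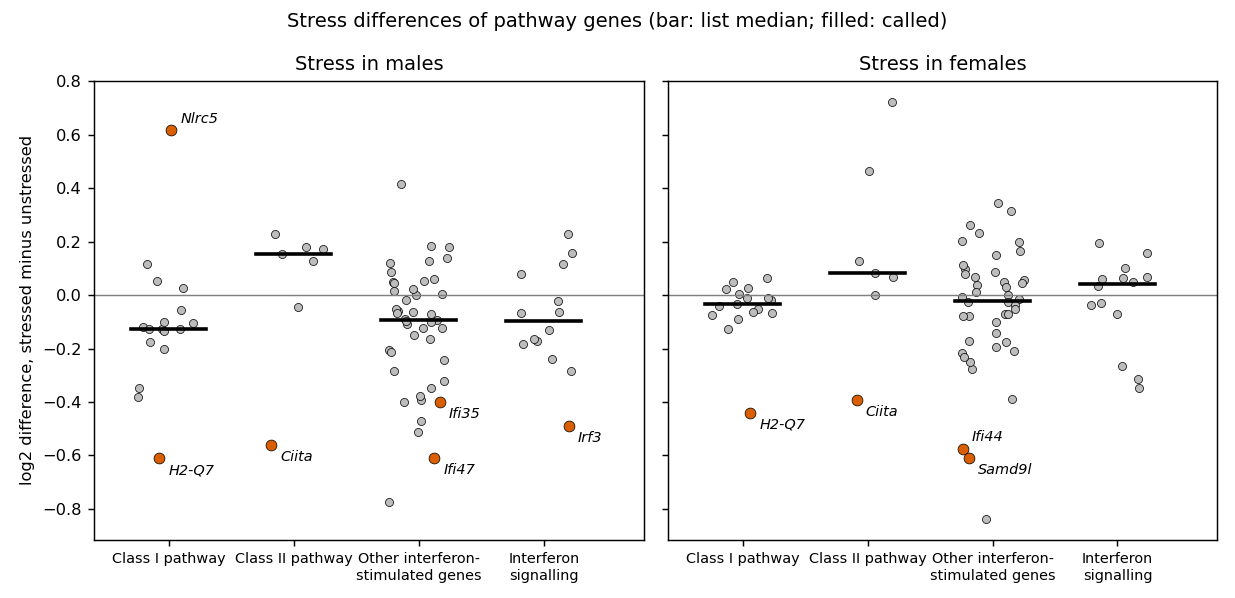
Stress differences (y axis, log2 scale) of the tested genes on 4 pathway lists in males and females. Each point is a gene, filled points are called genes and bars are list medians. The bar of the class I list sits at -0.13 in males and -0.03 in females, and *H2-Q7* and *Ciita* are filled in both panels.

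Of 14 genes of interferon signalling, 1 was called for stress in males and 0 in females, beside 6.44% and 1.73% of all genes. *Irf3*, a transcription factor that starts interferon production, fell in males from 13.2 ± 2.75 CPM in NSM to 9.31 ± 2.07 CPM in SM (-0.49 on the log2 scale, SE 0.17, adjusted p 0.120 by limma), and it was higher in SF than in SM (0.39, SE 0.17, adjusted p 0.270 by limma). *Stat2*, a partner of *Irf9*, had group means of 21.4 to 22.5 CPM. The receptor genes *Ifnar1* (44.3 to 45.9 CPM) and *Ifngr1* (16.2 to 18.2 CPM) were present in every group.

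Transcripts of the interferons themselves were at or near 0. Of 8 interferon genes matched in the table, 5, *Ifnb1* among them, had 0 reads in all 12 libraries, which allows up to 3 reads or 0.0493 to 0.0730 CPM a library, and no other had more than 1 read in a library. These limits cover counting error only. *Ifnlr1*, a subunit of the interferon lambda receptor, was called lower in stressed females, but on 8 to 14 reads in NSF and 0 to 6 reads in SF. It fell outside the rule for named genes and was picked after its values were seen.

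Across the 12 libraries, correlations between the 9 genes were mixed. Of 36 pairs, 27 had a Pearson r of log2 CPM above 0, with a median of 0.17 and a range of -0.67 to 0.80. After taking off each group mean the median was 0.29. The spread of *Ifit1* and *Ifit3* was no larger than counting error, and that of *Psmb8* was close to it. A low r with these genes therefore cannot show that genes vary apart. The highest was that of the heavy chains *H2-K1* and *H2-D1* (r = 0.80, permutation p = 0.00162, adjusted 0.0583; rho = 0.85, permutation p = 0.00081, adjusted 0.0292), with r of 0.88 without the 2 libraries farthest from the median of *H2-K1*. Within groups, after taking off each group mean, it was 0.69. The lowest was that of *B2m* and *Irf9* (r = -0.67, permutation p = 0.0185, adjusted 0.268; rho = -0.55, permutation p = 0.0713, adjusted 0.588), with r of -0.47 without the 2 farthest libraries. *Ifit1* and *Ifit3*, the pair with matching ISRE letters, had r of 0.40 (permutation p = 0.201, adjusted 0.557; rho = 0.38, permutation p = 0.218, adjusted 0.708) and 0.44 without the 2 farthest libraries.

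**Figure D4:**
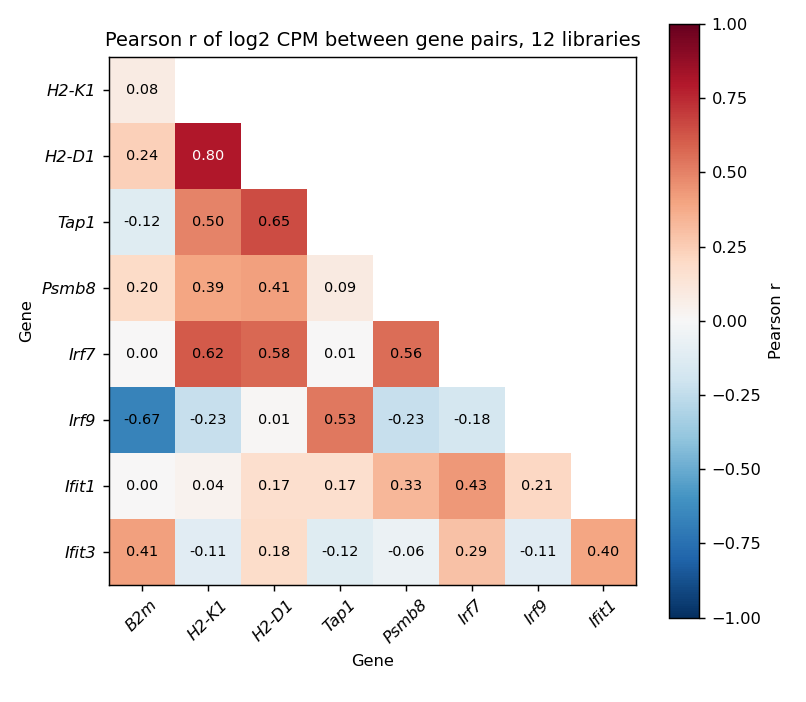
Pearson r of log2 CPM for each pair of the 9 genes over 12 libraries (colour and printed value, scale -1 to 1). *H2-K1* and *H2-D1* have the highest r (0.80), and *B2m* and *Irf9* the lowest (-0.67).

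Each gene was also set against the mean log2 CPM of cortical neuron, microglia and endothelial markers, 27 relations over 12 libraries. *B2m* followed microglia markers, with r = 0.85 (permutation p = 0.00038, adjusted 0.0103) and rho = 0.76 (permutation p = 0.00557, adjusted 0.0990), r = 0.73 without the 2 farthest libraries and r = 0.80 within groups. It was the only relation with an adjusted p of r under 0.05. Within groups, *H2-K1* (r = 0.83), *H2-D1* (0.72) and *Tap1* (0.62) also went with microglia markers. Over all 12 libraries their r was -0.07, 0.09 and -0.36. Within groups *Ifit3* was at 0.31, *Psmb8* at 0.13, *Irf7* at -0.10 and *Ifit1* at -0.19. The within-group values were not tested. *Irf9* ran the opposite way with microglia markers, with r = -0.70 (permutation p = 0.0112, adjusted 0.0856) and rho = -0.75 (permutation p = 0.00745, adjusted 0.0990), r = -0.71 without the 2 farthest libraries and r = -0.57 within groups. *Irf7* had r = 0.69 with cortical neuron markers (permutation p = 0.0158, adjusted 0.0856; rho = 0.64, permutation p = 0.0288, adjusted 0.125; r = 0.53 without the 2 farthest libraries, 0.49 within groups). With endothelial markers it had r = 0.76 (permutation p = 0.00467, adjusted 0.0630; rho = 0.72, permutation p = 0.0110, adjusted 0.0990; r = 0.85 without the 2 farthest libraries, 0.75 within groups). *Tap1* had r = -0.28 with cortical neuron markers (permutation p = 0.361, adjusted 0.609; rho = -0.55, permutation p = 0.0673, adjusted 0.202; r = -0.62 without the 2 farthest libraries). Within groups the sign turned, at r = 0.35, so the negative relation does not hold within groups.

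**Figure D5:**
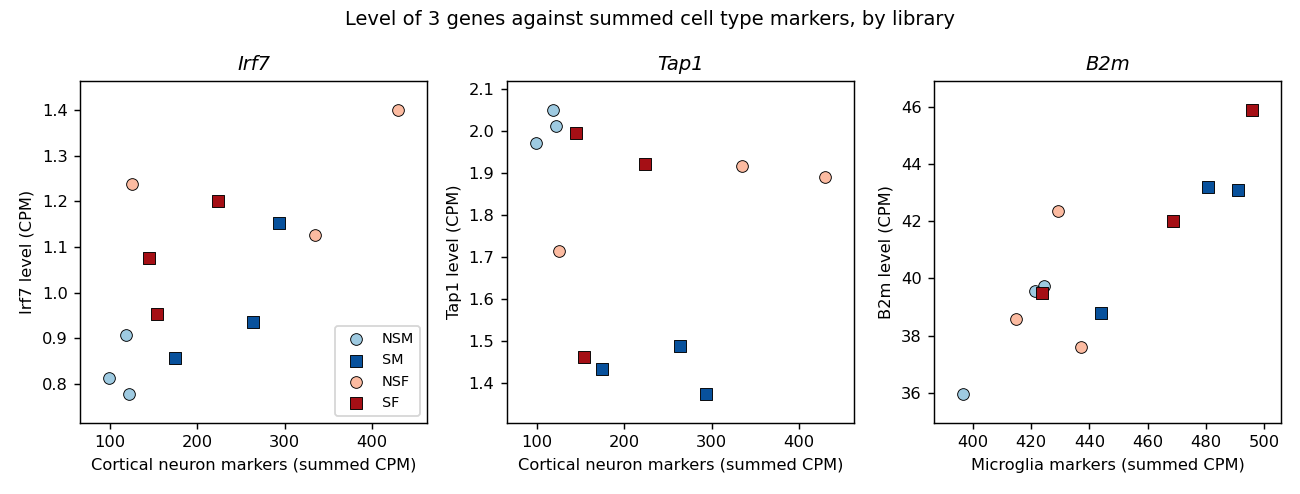
Level of *Irf7* and *Tap1* against the summed level of cortical glutamatergic neuron markers, and of *B2m* against that of microglia markers (all CPM, axes not from 0), with a point per library. *Irf7* is highest in the NSF library with 430 CPM of cortical markers. The SM libraries of *Tap1* stay under 1.49 CPM, at 174 to 294 CPM of cortical markers. *B2m* is highest in the SF library with 496 CPM of microglia markers.

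The genes whose levels were most like each of the 9 over the 12 libraries, among all tested genes with a mean of at least 10 reads, were not on the interferon or class I lists. They were *Higd1a* for *B2m* (r = 0.97), *D17Wsu104e* for *H2-K1* (0.93), *Rpl8* for *H2-D1* (0.95), *Smtnl2* for *Tap1* (0.93), *Mospd4* for *Psmb8* (0.84), *Carns1* for *Irf7* (0.95), *Lrrc16a* for *Irf9* (0.96), *4930578G10Rik* for *Ifit1* (0.90) and *Gm5859* for *Ifit3* (0.94). The second closest to *Ifit3* was *Ube2l6* (0.93), also outside the lists. The lists do not hold every interferon-stimulated gene, so absence from them does not show that a gene is unrelated to interferon. These are the highest of many correlations and share library, depth and group with the gene they follow.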

How the data were processed

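RNA from pooled NAc punches was made into polyA mRNA libraries with a kit that marks no strand and read as paired ends. The authors aligned reads to NCBIM37 with TopHat2 and counted reads per Ensembl gene with HTSeq (versions and strand setting are not given in the sources used here), and deposited raw counts. Small RNA counts were not used here. The levels of 1 gene of interferon signalling are not reported here. Symbols and coordinates came from GENCODE for NCBIM37, and 798 of 18593 tested genes had no symbol. A gene was kept when it exceeded 5 reads in 80% or more of any group, scaled by TMM (edgeR 4.0.16), and fitted in all 12 libraries with voom and limma 3.58.1 in R 4.3.3, the design of the study methods, with Benjamini-Hochberg adjustment over all tested genes. The fit was tested on simulated data. CPM are TMM-scaled, and log2 CPM in correlations used a pseudocount of 0.5 and 100000 permutations. The 9 genes and the pathway and marker lists were chosen with earlier results of these data known. Named pathway genes are those called with a mean of at least 10 reads. *Isg15*, *Stat2*, *Ifnar1*, *Ifngr1*, *H2-Q6* and *H2-Q4* fell outside this rule and were chosen after their values were seen. Replicate numbers in the labels were checked for pairing by correlating deviations from group means. In females r was 0.17, 0.11 and 0.23, and in males it was 0.04, 0.05 and 0.52. Libraries of unlike number were not set beside these, so the values do not settle whether libraries were paired. The main fit used no pairing, and the replicate block was an alternative. Alternatives were edgeR and DESeq2 1.42.0 tests, other scalings, filters and thresholds, the replicate block, each library left out, only the groups compared, a marker covariate and 3 libraries left out. No libraries of a group agreed within sampling noise (chi-square per gene of 5.44 or more).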

Additional observations from a re-analysis of the deposited data

Results flagged for a closer look

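The stress difference of *Tap1* differed between the sexes by the interaction test, at 0.447 on the log2 scale (adjusted p = 0.493 by limma). It was -0.49 in males, where all 3 stressed libraries were below the unstressed mean, and -0.04 in females, where 1 of 3 stressed libraries was below it. The SF libraries were at 1.46, 2.00 and 1.92 CPM. Without the first SF library the interaction was 0.58, and without the second SF library it was 0.36. It was called in 4 of 12 fits without 1 library, and was not called with DESeq2 or with the replicate block. Groups of 3 libraries were too small for a search for outlying libraries.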

How the results depend on the processing

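Of 591 values recomputed under alternatives, 558 kept their direction and their side of the threshold. The *Tap1* difference in males was called in every test, scaling, filter and library left out, at -0.59 to -0.45, with an adjusted p of 0.0476 to 0.209 that was under 0.05 with scaling by library size only. With an adjusted p under 0.05 required, 0 of 9 genes were called in each comparison. Without a fold threshold, 2 were called for stress in males and 1 for stress in females, beside 21.5% and 4.23% of all genes tested. Likewise 3 were called between unstressed females and males (15.4% of all genes) and 2 between stressed females and males (16.4%). For the mean stress difference 4 were called (18.7%). For the interaction, 0 were called with DESeq2 and 0 with the replicate block, beside 619 and 923 of all 18593 genes. With quantile normalization 2 were called (*Tap1* and *Irf7*), beside 845 of all genes. When each library was left out 0 to 1 were called, beside 672 to 1103 of all genes. That call was lost without any of NSM replicates 1, 2 and 3, SM replicates 1 and 3, NSF replicate 2 and SF replicates 2 and 3, which are fits with fewer samples. The replicate block changed no other call of the 9 genes. With each library left out, 0 to 1 were called between stressed females and males, beside 752 to 1473 of all genes.

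The cortical marker covariate and the fit without NSM1, NSF1 and NSF3 were chosen after seeing the data. With the covariate, 2 genes were called for stress in males and 2 for the interaction (*Tap1* and *Irf9* in both), and 0 between unstressed females and males, beside 1193, 518 and 495 of all 18593 genes (1198, 822 and 988 without the covariate). The fit without the 3 libraries kept NSF replicate 2 as the only NSF library, so its calls that use NSF are not given. The nearest NSM and NSF libraries were at 122 and 125 CPM of summed cortical markers. That summed level did not overlap between NSM and SM or between NSM and NSF. The covariate fit therefore cannot separate it from stress in males or from sex without stress. The causes were not tested.

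Small differences changed sign. With the covariate, on the log2 scale, *Tap1* in females became 0.0029, *Irf9* in females 0.041, *Psmb8* in males -0.22 and *Ifit1* in males -0.20. Without the 3 libraries, *Tap1* in females became 0.066 and *Irf9* in females 0.11. *Irf9* in females was 0.010 with quantile normalization, and *Ifit1* in males -0.0088 with scaling by library size only. With each library left out, *Tap1* in females ranged from -0.12 to 0.10, *Irf9* in females from -0.081 to 0.077, *Psmb8* in males from -0.064 to 0.21 and *Ifit1* in males from -0.011 to 0.15. Read numbers limit *Psmb8*, *Irf7*, *Ifit1* and *Tap1*, which had at most 51, 75, 72 and 114 reads in a library.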
